A study of Mus musculus with 12 samples.

Results

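The genes described here encode nuclear receptors and the proteins that work with them, and were taken by gene symbol from the deposited count tables. There were 35 of them among 18929 listed genes, namely 27 nuclear receptors, 6 coregulators, and the dioxin receptor Ahr with its partner Arnt, which are not nuclear receptors but bHLH-PAS factors that also answer to small ligands. All 35 had 1 row in each table and passed the filter on low counts in every comparison. Their transcripts were counted in 12 RNA-Seq libraries of murine jejunal enteroids, epithelial organoids grown from crypts, after 5 days in ENR medium. There were 4 libraries each of control, Hdac1-deficient and Hdac2-deficient enteroids. Floxed Hdac1 or Hdac2 alleles were deleted with a Cre transgene driven by the villin promoter, which is active in the intestinal epithelium, on a background mixed from C57BL/6 J, 129SV and CD1. The control is called wild-type in the RNA protocol and villin-Cre in the study's text. The methods name a single donor mouse per genotype. Whether the 4 libraries of a genotype trace to separate animals is not given, so p-values measure only the spread between these libraries, and genotype cannot be told apart from donor mouse or enteroid line.

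Nuclear receptors are transcription factors, many of which bind a lipid, hormone, vitamin or drug and sit on short repeated DNA motifs, often as a heterodimer with a retinoid X receptor. A receptor without its agonist can recruit corepressors that bring histone deacetylases to the gene, and a receptor with its agonist exchanges them for coactivators. HDAC1 and HDAC2, a closely related pair, are among the enzymes recruited in this way. In the intestinal epithelium, HNF4 receptors maintain the enterocyte program, and PPAR, vitamin D, retinoid and xenobiotic receptors adjust absorption and metabolism to what the lumen brings.

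Between 20693200 and 30658628 reads were counted per library, so that 3 counts, taken as the floor, equalled 0.0971 to 0.145 CPM (counts per 1000000 counts, scaled with TMM factors). The floor and all counting intervals cover counting error only. Hdac1 was at 90.6 ± 2.76 CPM (SD, n = 4) in control and 4.23 ± 0.834 CPM in Hdac1-deficient enteroids. Hdac2 was at 137 ± 3.85 CPM in control and 75.9 ± 2.89 CPM in Hdac2-deficient enteroids, so that its transcript was lowered but still counted over the whole gene. The study itself reported deletion of each gene by RT-PCR, Western blot and immunofluorescence. Each mutant also had less of the other transcript than control. Hdac2 was at 112 ± 3.84 CPM in Hdac1-deficient enteroids, and Hdac1 was at 75.3 ± 4.39 CPM in Hdac2-deficient enteroids. The libraries were epithelial: the summed level of 6 epithelial markers lay between 4862 and 6281 CPM, while none of the lists of mesenchymal, endothelial and leukocyte markers summed to more than 5.57 CPM in any library, and Col1a2, Col3a1, Cdh5 and Cd3e were among the markers not listed. The summed level of 13 enterocyte markers ran from 10247 to 10745 CPM in control, from 19773 to 22737 CPM in Hdac1-deficient and from 16166 to 18190.0 CPM in Hdac2-deficient enteroids. That of 8 crypt stem cell markers ran from 3808 to 3999 CPM, from 2189 to 2558 CPM and from 1871 to 2075 CPM in the same order. Markers of secretory cells moved in part. The 7 goblet cell markers summed to 1601 to 1859 CPM in control, 1728 to 1853 CPM with Hdac1, within the control range, and 2675 to 2905 CPM with Hdac2. The 6 Paneth cell markers summed to 2078 to 2420.1 CPM, 3047 to 3302 CPM and 3310.2 to 3456 CPM. Single markers of both lists went both ways with Hdac1. Median log2 fold changes were -0.03 (goblet) and 0.04 (Paneth, 5 tested) with Hdac1, and 0.53 and 0.57 with Hdac2. The 8 enteroendocrine markers summed to 243 to 252 CPM, 305 to 353 CPM and 306 to 332 CPM, and the 6 leukocyte markers to 1.88 to 2.26 CPM, 2.69 to 3.77 CPM and 4.08 to 5.08 CPM. Marker levels thus differed between the groups beside every result below, and their part in the results was not tested. In bulk RNA fewer cells of a type and less RNA per cell cannot be told apart. Control library 1 had the strongest trend with exon length, in that its deviations from the mean of the control libraries fell with it (Spearman's rho -0.57 across 10359 genes, which are not independent). The 1923 genes with at least 8 kb of exons had a median deviation of -0.07 on the log2 scale there. Against their own group means, rho was 0.46 and 0.45 in control libraries 2 and 3 and 0.36 in Hdac1-deficient library 1, and smaller in size in the other libraries. Members whose calls change without control library 1 are given both ways.

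Of the 35 members, 27 passed the test in Hdac1-deficient enteroids (adjusted p up to 0.05, edgeR's quasi-likelihood test with Benjamini-Hochberg adjustment over 14246 genes), 17 of them higher and 10 lower than control. At that threshold 64.6% of all genes tested passed, 32.7% higher and 31.9% lower, beside 77.1% of the members, a difference in shares that was not tested. In Hdac2-deficient enteroids 22 members passed, 17 higher and 5 lower, or 62.9% beside 62.3% of all 14007 genes tested, of which 31.4% were higher and 30.9% lower. Between the mutants 17 of 35 members differed, or 48.6% beside 45.9% of all 14510 genes. Without control library 1, 15 members were higher and 10 lower in Hdac1-deficient enteroids (71.4% of members beside 63.5% of all genes), and 16 were higher and 5 lower in Hdac2-deficient enteroids (60% beside 62.5%). Changes were small for most members. The median size of the log2 fold change was 0.29 in Hdac1-deficient enteroids (0.25 over all genes), 0.17 in Hdac2-deficient enteroids (0.23) and 0.10 between the mutants (0.16). A change of more than 2-fold was called for Rarb and Pparg in Hdac1-deficient enteroids, both lower, which is 5.71% of the members beside 10.6% of all genes (6.87% higher and 3.71% lower). It was called for Ppargc1a in Hdac2-deficient enteroids, which was higher, or 2.86% of the members beside 8.3% of all genes (5.45% higher and 2.84% lower). Rarb and Pparg also differed by more than 2-fold between the mutants, where 5.62% of all genes did (2.74% higher and 2.89% lower with Hdac1). DESeq2 called these members and no others past 2-fold. Levels of a member did not overlap between mutant and control libraries for 24 members with Hdac1 and 21 with Hdac2, beside 58.5% and 56% of all genes.

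**Figure D1:**
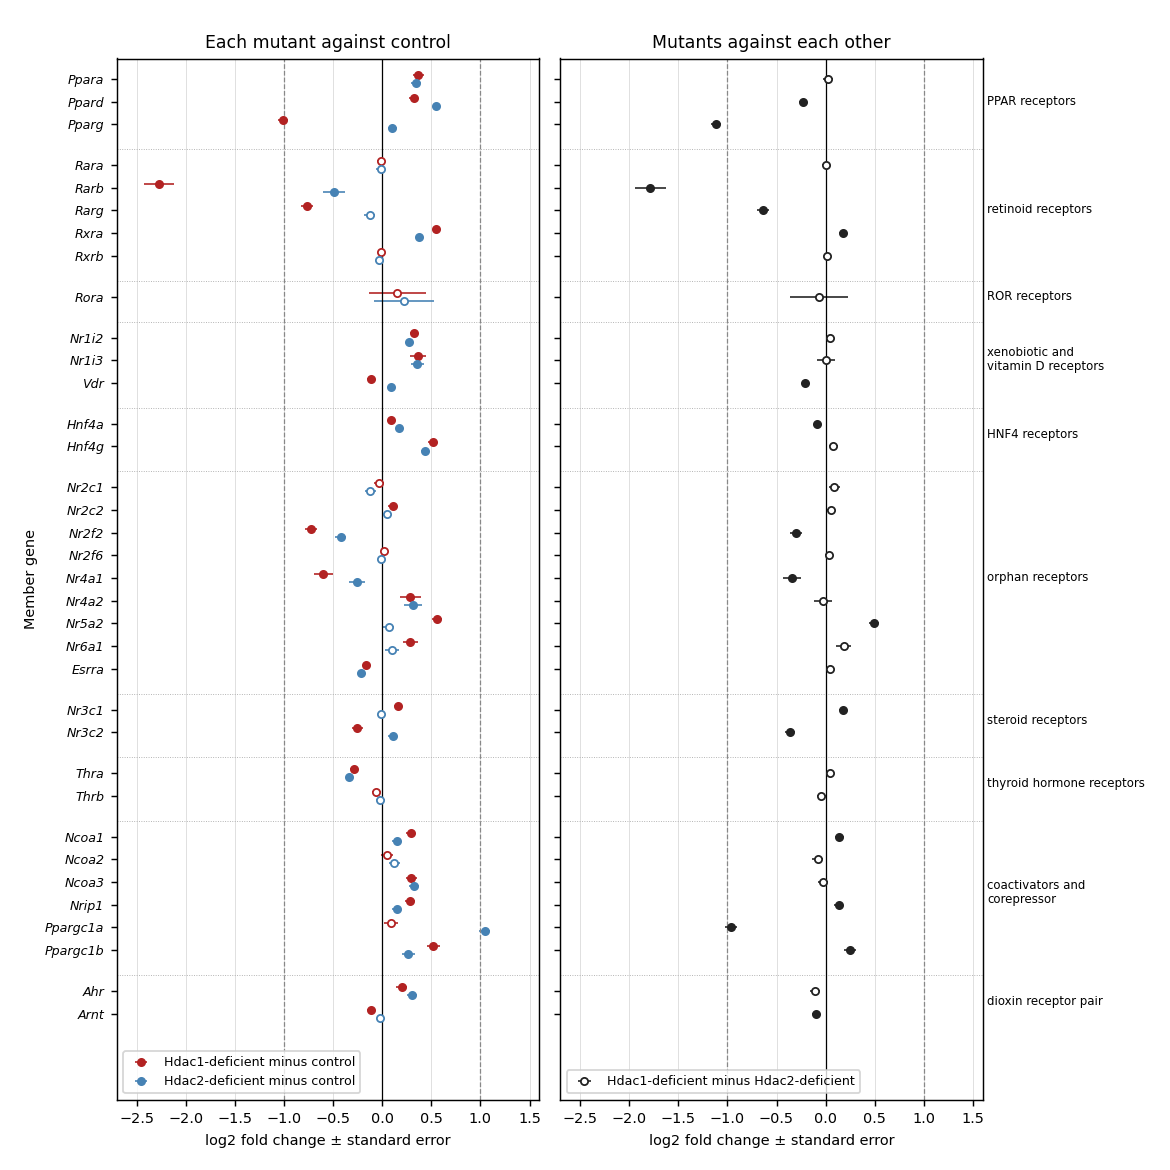
Log2 fold change with its standard error (bars) of each member, grouped by role; the left panel shows both mutants against control and the right panel the mutants against each other, with filled points for an adjusted p of at most 0.05 and dashed lines at a 2-fold change. Rarb at -2.27 and Pparg at -1.01 lie furthest left in Hdac1-deficient enteroids, and Ppargc1a at 1.05 furthest right in Hdac2-deficient enteroids.

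Sorted by both comparisons, 13 members were higher than control in both mutants (Ppara, Ppard, Rxra, Nr1i2, Nr1i3, Hnf4a, Hnf4g, Nr4a2, Ncoa1, Ncoa3, Nrip1, Ppargc1b and Ahr) and 5 were lower in both (Rarb, Nr2f2, Nr4a1, Esrra and Thra). Of the 13851 genes tested in both comparisons, 22.3% were higher in both and 22.6% lower in both, beside 37.1% and 14.3% of the members. The comparisons share the control libraries, so these shares are a description and were not tested. A group of 3 members was lower in Hdac1-deficient and higher in Hdac2-deficient enteroids, as were 2.4% of all genes: Pparg, the vitamin D receptor Vdr and the mineralocorticoid receptor Nr3c2. All 3 also differed in the direct test of the mutants, but their increases with Hdac2 were small. Another 4 were higher with Hdac1 and not past the threshold with Hdac2 (Nr2c2, Nr5a2, Nr6a1 and Nr3c1), 2 were lower with Hdac1 and not past with Hdac2 (Rarg and Arnt), and Ppargc1a was higher with Hdac2 and not past with Hdac1. Of these, Nr5a2, Nr3c1, Rarg, Arnt and Ppargc1a differed between the mutants in the direct test, and Nr2c2 and Nr6a1 did not pass it. Neither comparison passed for 7 members (Rara, Rxrb, Rora, Nr2c1, Nr2f6, Thrb and Ncoa2).

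Promoter sequence is shown for the 3 members called past 2-fold, because these are the genes whose transcript moved most. The windows are the 250 bases before a RefSeq transcription start on GRCm38.p6, read 5′ to 3′ on the gene's strand, with a searched motif in capitals. Motifs were searched on both strands. A window was found for 28 of the 35 members, 41 windows in all.
Rarb, chr14:16575477-16575726, minus strand: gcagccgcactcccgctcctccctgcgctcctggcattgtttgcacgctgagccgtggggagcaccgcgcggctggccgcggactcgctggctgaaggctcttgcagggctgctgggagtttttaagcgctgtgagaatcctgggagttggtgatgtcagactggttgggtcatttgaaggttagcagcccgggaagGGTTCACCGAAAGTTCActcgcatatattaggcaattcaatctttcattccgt
Pparg, chr6:115360894-115361143, plus strand: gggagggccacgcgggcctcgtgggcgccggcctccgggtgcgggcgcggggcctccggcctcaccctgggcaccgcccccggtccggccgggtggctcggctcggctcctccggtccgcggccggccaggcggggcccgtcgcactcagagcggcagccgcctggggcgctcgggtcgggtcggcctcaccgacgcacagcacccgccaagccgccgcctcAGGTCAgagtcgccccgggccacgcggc
Ppargc1a, chr5:51567726-51567975, minus strand: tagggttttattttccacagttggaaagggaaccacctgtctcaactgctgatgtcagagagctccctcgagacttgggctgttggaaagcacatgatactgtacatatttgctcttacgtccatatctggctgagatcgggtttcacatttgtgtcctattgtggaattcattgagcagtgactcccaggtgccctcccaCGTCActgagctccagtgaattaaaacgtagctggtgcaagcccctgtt
In the Rarb window the capitals mark the direct repeat, with 5 bases between its half-sites, that retinoic acid receptor and RXR heterodimers bind and that is known from this gene's internal promoter. The search allowed any letter at those 5 bases but held both half-sites to the letters of this gene's own element. The match in Rarb was thus set in advance, and other forms of the repeat were not searched. The repeat runs from 53 to 37 bases before the start and was found in 2 of 32851 RefSeq windows of this length, or 0.00609%, with Rarb the only member. In the Pparg window, the one of its 3 windows that held the motif in capitals, AGGTCA is the common nuclear receptor half-site. It lies 28 to 23 bases before that start, and 14% of all windows and 6 of the 28 members held it (Nr5a2, Nr6a1, Pparg, Rarg, Rxra and Thrb). In the Ppargc1a window the capitals mark the reverse complement of TGACG, a half-site bound by CREB. Ppargc1a is known to answer to cAMP through CREB, but whether this match takes part was not tested. The match lies 49 to 45 bases before the start. The half-site was held on either strand by 17.8% of all windows and 11 of the 28 members. These are matches of letters, not measured binding.

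Among the PPAR receptors, which bind fatty acids and their derivatives and pair with RXR, Pparg fell and Ppard and Ppara rose in Hdac1-deficient enteroids, while all 3 were higher in Hdac2-deficient enteroids. Pparg (ENSMUSG00000000440, chromosome 6 of GRCm38 from 115360951 to 115490399) is best known for fat cell differentiation and is also expressed in intestinal epithelium. It was counted at 38.2, 35.4, 35.1 and 34.8 CPM in the control libraries, at 16.2, 17.9, 18.1 and 18.1 CPM in the Hdac1-deficient libraries and at 38.0, 39.1, 39.6 and 36.6 CPM in the Hdac2-deficient libraries. Every Hdac1-deficient library was thus at about the same low level, and no library of the other groups came near it. The log2 fold change was -1.01 (SE 0.05, adjusted p = 1.38e-12) against control and -1.12 (SE 0.05, adjusted p = 5.32e-16) against Hdac2-deficient enteroids. The first of these sits at the edge of the 2-fold limit: it was -0.98 without control library 1 and -0.98 without Hdac1-deficient library 1, which ends the 2-fold call but not the fall. The rise of Pparg in Hdac2-deficient enteroids was 0.10 (SE 0.04, adjusted p = 0.0451), and its libraries overlapped those of control. It no longer passed with DESeq2 (adjusted p = 0.0889), with no filter on low counts (0.0732), with all 12 libraries in 1 fit (0.0772), with library size alone (0.148) or without any of 6 single libraries, among them control library 4 (0.143).

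Ppard, which acts in most tissues including the crypt, was the most abundant PPAR by CPM but the lowest of the 3 per kb of exon in control. It had 8.30 CPM per kb there, beside 12.1 for Pparg and 9.72 for Ppara. Ppard was counted at 60.3, 64.7, 64.2 and 60.4 CPM in control, 79.5, 78.7, 79.3 and 70.7 CPM in Hdac1-deficient and 89.3, 89.9, 91.6 and 91.8 CPM in Hdac2-deficient libraries. The 3 groups did not overlap, with Hdac2-deficient libraries highest. Its log2 fold change was 0.32 (SE 0.04, adjusted p = 2.35e-06) with Hdac1, 0.55 (SE 0.04, adjusted p = 1.81e-11) with Hdac2 and -0.23 (SE 0.04, adjusted p = 1.6e-05) for Hdac1 minus Hdac2. Ppara, the receptor that drives fatty acid oxidation and ketogenesis, rose in both mutants, by 0.37 and 0.34 on the log2 scale (SE 0.05 each, adjusted p = 6.36e-06 and 1.03e-05). Its difference between the mutants was 0.02 (SE 0.05, adjusted p = 0.723).

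The retinoid receptors had the widest spread of any role in Hdac1-deficient enteroids, from -2.27 to 0.55 on the log2 scale. Retinoic acid receptors (Rara, Rarb, Rarg) bind retinoic acid, and retinoid X receptors (Rxra, Rxrb) are their partners and those of many other receptors. Rarb (ENSMUSG00000017491, chromosome 14 from 16430839 to 16819156) is itself a classical retinoic acid target through the repeat printed above. It was counted at 5.13, 5.41, 6.07 and 4.80 CPM in control, at 0.750, 1.36, 1.02 and 1.23 CPM in Hdac1-deficient and at 3.80, 4.41, 3.29 and 3.60 CPM in Hdac2-deficient libraries. The groups did not overlap, and the Hdac1-deficient libraries held 20 to 42 Rarb reads each, well over the floor, where control libraries held 115 to 183. Its log2 fold change was -2.27 (SE 0.15, adjusted p = 5.79e-11) with Hdac1, -0.49 (SE 0.11, adjusted p = 0.000721) with Hdac2 and -1.78 (SE 0.16, adjusted p = 6.47e-10) between the mutants. Rarb shares 34.1% of its exon bases with Top2b on the opposite strand, and the strand setting of the counting is not given in the sources used here, so reads of the pair may not be told apart. Top2b was at 190.2 CPM in control and its log2 fold changes were -0.28 and -0.13, smaller than those of Rarb in the same comparisons.

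Rarg, the receptor subtype known best from skin and other epithelia, also fell in Hdac1-deficient enteroids, from 17.8 ± 0.640 to 10.4 ± 0.359 CPM, a log2 fold change of -0.76 (SE 0.06, adjusted p = 9.08e-10). Against control, the 16.2 ± 0.522 CPM of Rarg with Hdac2 deleted gave a log2 fold change of -0.13 (SE 0.06, adjusted p = 0.0536), just short of the threshold although no Hdac2-deficient library reached a control library. It passed when all 12 libraries were fitted together (adjusted p = 0.0377), with library size alone (0.0186) and without control library 4 (0.0383) or Hdac2-deficient library 2 (0.0417). The difference between the mutants was -0.64 (SE 0.06, adjusted p = 1.3e-09). Rara, the most abundant of the 3 retinoic acid receptors, was at 40.8 ± 1.28, 40.0 ± 1.70 and 40.0 ± 2.19 CPM, with log2 fold changes of -0.01 and -0.02 (SE 0.04 each). Thus in Hdac1-deficient enteroids 2 of 3 retinoic acid receptors fell and for the third no change was detected. Of all genes tested, 31.9% were lower there.

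Rxra moved the other way, with 109, 105, 107 and 104 CPM in control, 161, 153, 146 and 155 CPM in Hdac1-deficient and 139, 132, 131 and 144 CPM in Hdac2-deficient libraries. All mutant libraries were above all control libraries, and the Hdac1-deficient ones were highest. The log2 fold changes were 0.55 (SE 0.03, adjusted p = 3.75e-11) and 0.37 (SE 0.03, adjusted p = 3.76e-09), and the mutants differed by 0.17 (SE 0.03, adjusted p = 0.000223). Rxrb, by contrast, was at 65.3 ± 1.74, 64.3 ± 1.95 and 63.6 ± 1.64 CPM, with adjusted p of 0.86 and 0.514. Rora, a receptor of the clock and of lymphoid cells, was the lowest member, with 0.503, 0.530, 0.265 and 0.543 CPM in control, 0.450, 0.518, 0.393 and 0.653 CPM in Hdac1-deficient and 0.664, 0.586, 0.484 and 0.347 CPM in Hdac2-deficient libraries. These groups overlapped throughout, and a difference was not detectable at this depth.

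**Figure D2:**
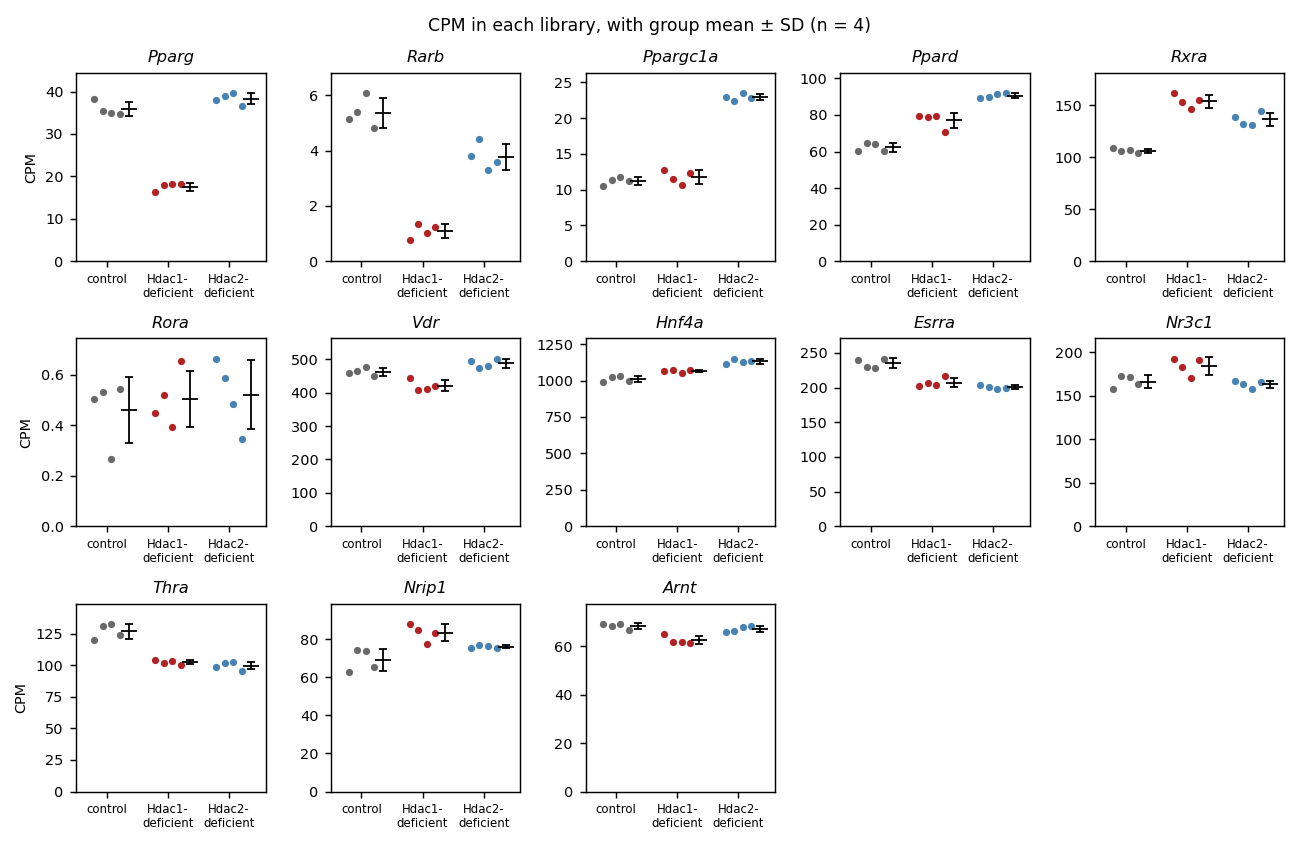
CPM of the 3 members called past 2-fold and of the member of each role with the highest mean CPM, with 1 point per library and the group mean ± SD (n = 4) beside the points; each vertical axis starts at 0. The Hdac1-deficient libraries of Pparg (16.2 to 18.1 CPM) and Rarb (0.750 to 1.36 CPM) and the Hdac2-deficient libraries of Ppargc1a (22.4 to 23.5 CPM) stand clear of the other groups, and the other panels show smaller steps.

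Of the receptors for xenobiotics and vitamin D, PXR (Nr1i2) and CAR (Nr1i3), which induce drug-metabolizing enzymes, rose in both mutants. Nr1i2 went from 64.6 ± 1.08 CPM to 80.0 ± 5.18 and 77.5 ± 2.13 CPM, log2 fold changes of 0.32 (SE 0.04, adjusted p = 1.83e-06) and 0.27 (SE 0.03, adjusted p = 6.5e-07). Nr1i3 went from 38.6 ± 3.17 CPM to 49.2 ± 5.93 and 49.2 ± 4.24 CPM, log2 fold changes of 0.36 (SE 0.08, adjusted p = 0.00262) and 0.36 (SE 0.07, adjusted p = 0.00032). For Nr1i3, 74.9% of the exon bases are shared with Tomm40l on the opposite strand, so its level is uncertain, and Tomm40l itself had log2 fold changes of -0.54 and -0.33. Vdr, which mediates calcium absorption, was the second most abundant member per kb of exon in control. It was counted at 458, 464, 475 and 449 CPM in control, 445, 408, 409.7 and 420.4 CPM in Hdac1-deficient and 494, 475, 479 and 502 CPM in Hdac2-deficient libraries. The Hdac1-deficient libraries were all below control by a narrow margin, and the Hdac2-deficient libraries overlapped control. Its log2 fold change was -0.12 (SE 0.03, adjusted p = 0.00449) with Hdac1, 0.09 (SE 0.03, adjusted p = 0.0104) with Hdac2 and -0.21 (SE 0.03, adjusted p = 3.93e-06) between the mutants. The increase with Hdac2 no longer passed without control library 4 (0.07, adjusted p = 0.0736), without Hdac2-deficient library 4 (0.07, adjusted p = 0.0684) or with library size alone (0.06, adjusted p = 0.0703).

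The HNF4 receptors, which keep enterocyte genes active, were both higher in both mutants. Hnf4a was the most abundant member, at 992, 1027, 1032 and 995 CPM in control, 1066, 1072, 1051 and 1071 CPM in Hdac1-deficient and 1116, 1150.4, 1124 and 1134 CPM in Hdac2-deficient libraries. The groups did not overlap and the steps were small beside the level. The log2 fold changes of Hnf4a were 0.09 (SE 0.03, adjusted p = 0.0167) and 0.17 (SE 0.03, adjusted p = 2.03e-05), and the mutants differed by -0.09 (SE 0.03, adjusted p = 0.0144). Without control library 4 the change with Hdac1 was 0.08 (adjusted p = 0.0622), and the difference between the mutants was -0.08 without Hdac2-deficient library 2 (adjusted p = 0.0515) and -0.06 with library size alone (adjusted p = 0.0854). Hnf4g, the form more restricted to the intestine, moved more, from 194 ± 8.66 CPM to 275 ± 20.3 and 260.2 ± 13.8 CPM, log2 fold changes of 0.52 (SE 0.05, adjusted p = 2.39e-08) and 0.44 (SE 0.04, adjusted p = 5.23e-09).

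The 9 orphan receptors, for which no hormone ligand is established, included 4 that were higher and 3 that were lower in Hdac1-deficient enteroids, and 1 that was higher and 3 that were lower in Hdac2-deficient enteroids. Nr5a2 (LRH-1), which supports crypt renewal and local glucocorticoid synthesis, went from 29.4 ± 1.91 CPM in control to 43.0 ± 2.23 CPM with Hdac1 deleted, a log2 fold change of 0.56 (SE 0.05, adjusted p = 9.04e-09) and the largest rise of any member there. With Hdac2 deleted it was at 30.6 ± 1.35 CPM (0.06, SE 0.05, adjusted p = 0.284), and the mutants differed by 0.49 (SE 0.05, adjusted p = 5.74e-09). Nr2f2 (COUP-TFII), which often represses, fell in both mutants, from 25.6 ± 1.29 CPM to 15.4 ± 1.14 and 19.0 ± 1.35 CPM, log2 fold changes of -0.72 (SE 0.06, adjusted p = 2.02e-09) and -0.42 (SE 0.06, adjusted p = 1.54e-06), with the Hdac1-deficient level lower (-0.30, SE 0.06, adjusted p = 0.000327). Nr4a1, an immediate early gene, fell from 7.14 ± 0.366 CPM to 4.67 ± 0.560 and 5.94 ± 0.292 CPM, log2 fold changes of -0.60 (SE 0.10, adjusted p = 1.58e-05) and -0.26 (SE 0.08, adjusted p = 0.0106). Its relative Nr4a2 rose from 6.71 ± 1.01 CPM to 8.09 ± 0.788 and 8.26 ± 0.133 CPM, by 0.29 (SE 0.10, adjusted p = 0.0199) and 0.31 (SE 0.10, adjusted p = 0.00728). The rise of Nr4a2 with Hdac1 was not past the threshold without control library 1 (adjusted p = 0.0658), control library 2 (0.0774) or Hdac1-deficient library 2 (0.0777).

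Esrra, the estrogen-related receptor that works with PGC-1 on mitochondrial genes, was the most abundant orphan receptor, with 240.3, 229.5, 228 and 242 CPM in control, 202, 206, 204 and 217 CPM in Hdac1-deficient and 204, 201, 198 and 199.6 CPM in Hdac2-deficient libraries. All mutant libraries were below all control libraries. Its log2 fold changes were -0.17 (SE 0.03, adjusted p = 0.000252) and -0.22 (SE 0.03, adjusted p = 1.92e-06). The difference between the mutants was 0.05 (adjusted p = 0.228), and with library size alone it passed (0.08, adjusted p = 0.0391). The testicular receptors Nr2c1 and Nr2c2, Nr2f6 and the germ cell nuclear factor Nr6a1 had log2 fold changes between -0.12 and 0.29. Nr6a1 rose with Hdac1 (0.29, SE 0.08, adjusted p = 0.00306), and its difference between the mutants, 0.18, had an adjusted p of 0.0558 that fell under the threshold in 6 alternatives, among them without control library 1 (0.19, adjusted p = 0.029) and, the lowest, without Hdac1-deficient library 2 (0.24, adjusted p = 0.0144). Nr2c1 differed from control by -0.03 on the log2 scale with Hdac1 (adjusted p = 0.608) and by -0.12 with Hdac2 (adjusted p = 0.0618), the latter of which passed with library size alone (adjusted p = 0.0209), with all 12 libraries in 1 fit (0.0452) and without Hdac2-deficient library 1 (0.0427). Nr2c2 rose with Hdac1 by 0.11 (SE 0.04, adjusted p = 0.0334), a call lost without control library 1 (0.06, adjusted p = 0.138), control library 4 (0.0713), Hdac1-deficient library 1 (0.0889) or Hdac1-deficient library 2 (0.0728), and with no filter on low counts (0.062). Nr2c2 shares 30.7% of its exon bases with Mrps25 and Nr2f6 54.4% with Ocel1 on the opposite strand, so that their levels are uncertain too.

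The 2 steroid receptors diverged between the mutants. The glucocorticoid receptor Nr3c1 was counted at 158, 173, 171 and 163 CPM in control, 193, 184, 171 and 191 CPM in Hdac1-deficient and 167, 163, 158 and 165 CPM in Hdac2-deficient libraries. The third Hdac1-deficient library lay within the control range and the others above it. The log2 fold change was 0.16 (SE 0.04, adjusted p = 0.00147) with Hdac1 and -0.01 (SE 0.03, adjusted p = 0.726) with Hdac2, and the mutants differed by 0.18 (SE 0.04, adjusted p = 0.000318). The mineralocorticoid receptor Nr3c2, through which aldosterone drives sodium uptake, fell with Hdac1 from 25.8 ± 0.699 to 21.5 ± 1.35 CPM (-0.25, SE 0.05, adjusted p = 0.000349). It was at 27.7 ± 0.584 CPM with Hdac2 (0.11, SE 0.05, adjusted p = 0.0437), a call lost with DESeq2 (adjusted p = 0.101), with all 12 libraries in 1 fit (0.0836), with no filter on low counts (0.0768) or with library size alone (0.148), and without any of 7 of the 8 libraries, for instance without control library 1 (0.09, adjusted p = 0.118). The difference between the mutants, -0.36 (SE 0.05, adjusted p = 1.23e-06), kept its side of the threshold in every alternative.

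Of the thyroid hormone receptors, which bind triiodothyronine and are known to shape the intestinal epithelium during development, Thra fell in both mutants. It was counted at 119.9, 131, 133 and 124 CPM in control, 104, 102, 104 and 101 CPM in Hdac1-deficient and 98.8, 102, 103 and 95.9 CPM in Hdac2-deficient libraries. The mutant libraries lay together below control. The log2 fold changes were -0.29 (SE 0.04, adjusted p = 7.45e-07) and -0.34 (SE 0.04, adjusted p = 6.93e-08). Thra shares 5.7% of its exon bases with Nr1d1 on the opposite strand, which had log2 fold changes of -1.06 and -0.08. Thrb was at 43.8 ± 2.63, 41.6 ± 1.29 and 43.0 ± 0.719 CPM, with adjusted p of 0.272 and 0.75.

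Of the 6 coregulators, 4 were higher with Hdac1 deleted and 5 with Hdac2 deleted, and none of the others was lower. Of all genes tested, 32.7% were higher with Hdac1 and 31.4% with Hdac2, and the difference in shares was not tested. The p160 coactivators Ncoa1, Ncoa2 and Ncoa3 carry acetyltransferases to agonist-bound receptors, Nrip1 (RIP140) is recruited by agonist-bound receptors but represses, and Ppargc1a and Ppargc1b (PGC-1 alpha and beta) promote mitochondrial and oxidative genes. Ppargc1a (ENSMUSG00000029167, chromosome 5 from 51454250 to 51567726) was counted at 10.5, 11.4, 11.7 and 11.1 CPM in control, 12.7, 11.5, 10.6 and 12.3 CPM in Hdac1-deficient and 22.97, 22.4, 23.5 and 22.8 CPM in Hdac2-deficient libraries. The Hdac2-deficient libraries were alike and far above both other groups, which overlapped each other. Its log2 fold change was 1.05 (SE 0.06, adjusted p = 1.05e-12) with Hdac2, 0.09 (SE 0.07, adjusted p = 0.297) with Hdac1 and -0.96 (SE 0.06, adjusted p = 6.14e-13) for Hdac1 minus Hdac2. The 2-fold call with Hdac2 was kept in all 14 alternatives, with values from 1.01 to 1.07. Ppargc1b rose in both, from 17.1 ± 1.58 CPM to 24.3 ± 1.81 and 20.4 ± 0.837 CPM, and more with Hdac1 (0.52 against 0.27, difference 0.25, SE 0.06, adjusted p = 0.00186), so that the PGC-1 genes differed between the mutants in opposite directions.

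Nrip1, the coregulator with the highest mean CPM over all 12 libraries (in control Ncoa2 was at 69.8 CPM and Nrip1 at 69.1 CPM), was counted at 62.8, 74.3, 73.6 and 65.5 CPM in control, 88.1, 84.6, 77.2 and 83.4 CPM in Hdac1-deficient and 75.6, 76.8, 76.5 and 75.2 CPM in Hdac2-deficient libraries. Control libraries 1 and 4 were low, and every mutant library was above every control library. The log2 fold changes of Nrip1 were 0.28 (SE 0.05, adjusted p = 0.000149) and 0.15 (SE 0.05, adjusted p = 0.00952), and 0.24 and 0.10 without control library 1. The difference of 0.13 between the mutants (adjusted p = 0.0228) was lost without Hdac1-deficient library 1 (0.11, adjusted p = 0.0831), Hdac2-deficient library 1 (0.0545) or Hdac2-deficient library 4 (0.0578). Ncoa3 rose by 0.30 and 0.32 (SE 0.06 and 0.05, adjusted p = 0.000135 and 1.6e-05). Ncoa1 rose by 0.29 and 0.15 (SE 0.05 each, adjusted p = 2e-05 and 0.0101), and its rise with Hdac2 was not past the threshold without control library 4 (adjusted p = 0.0584) or Hdac2-deficient library 4 (0.0518). Ncoa2 did not pass, at 0.05 and 0.12 (adjusted p = 0.542 and 0.0842), and its value with Hdac1 changed sign without control library 1 (-0.02). Its value with Hdac2 passed without control library 2 (0.18, adjusted p = 0.00423).

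Ahr, which binds dioxin and dietary indoles, rose in both mutants, from 24.5 ± 1.01 CPM to 27.8 ± 1.76 and 30.0 ± 1.17 CPM, log2 fold changes of 0.20 (SE 0.05, adjusted p = 0.00347) and 0.31 (SE 0.05, adjusted p = 1.48e-05). The mutants differed by -0.11 (adjusted p = 0.0793), or by -0.14 without Hdac1-deficient library 2 (adjusted p = 0.0374). Its partner Arnt was counted at 69.2, 68.2, 69.1 and 66.7 CPM in control, 64.9, 61.7, 61.7 and 61.4 CPM in Hdac1-deficient and 65.8, 66.3, 67.8 and 68.2 CPM in Hdac2-deficient libraries. The Hdac1-deficient libraries were below all others. The log2 fold change of Arnt was -0.12 (SE 0.04, adjusted p = 0.00855) with Hdac1 and -0.02 (SE 0.03, adjusted p = 0.659) with Hdac2. The mutants differed by -0.10 (SE 0.03, adjusted p = 0.0182), which did not pass without Hdac1-deficient library 2 (-0.09, adjusted p = 0.0679), without Hdac2-deficient library 4 (-0.09, adjusted p = 0.0521) or with library size alone (-0.07, adjusted p = 0.0866).

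Per kb of all exons annotated in GENCODE M21, used or not, members can be compared with each other only roughly. On this scale Hnf4a led in all 3 groups, at 209 ± 4.33 CPM per kb in control. Vdr (81.7 ± 1.92), Hnf4g (73.7 ± 3.29), Esrra (53.6 ± 1.62) and Nr2f6 (44.8 ± 1.74) followed in control, and their intervals of 1 SD did not meet. The SD covers the spread between libraries only, and the level of Nr2f6 is uncertain because it shares exon bases with Ocel1. Thra (27.5 ± 1.30) and Nr1i2 (25.3 ± 0.424) came next, and the other members lay below 22 CPM per kb. At the low end were Nr4a2 (1.65 ± 0.248), Nr6a1 (1.40 ± 0.0941), Rarb (1.02 ± 0.102) and Rora (0.0352 ± 0.0100), of which Nr4a2 and Nr6a1 did not differ beyond their spread. Vdr and Hnf4g changed places in both mutants. Pparg ranked 11 of 35 in control and Hdac2-deficient and 20 of 35 in Hdac1-deficient enteroids, and Thra went from 6 to 9 with Hdac1 and to 8 with Hdac2.

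**Figure D3:**
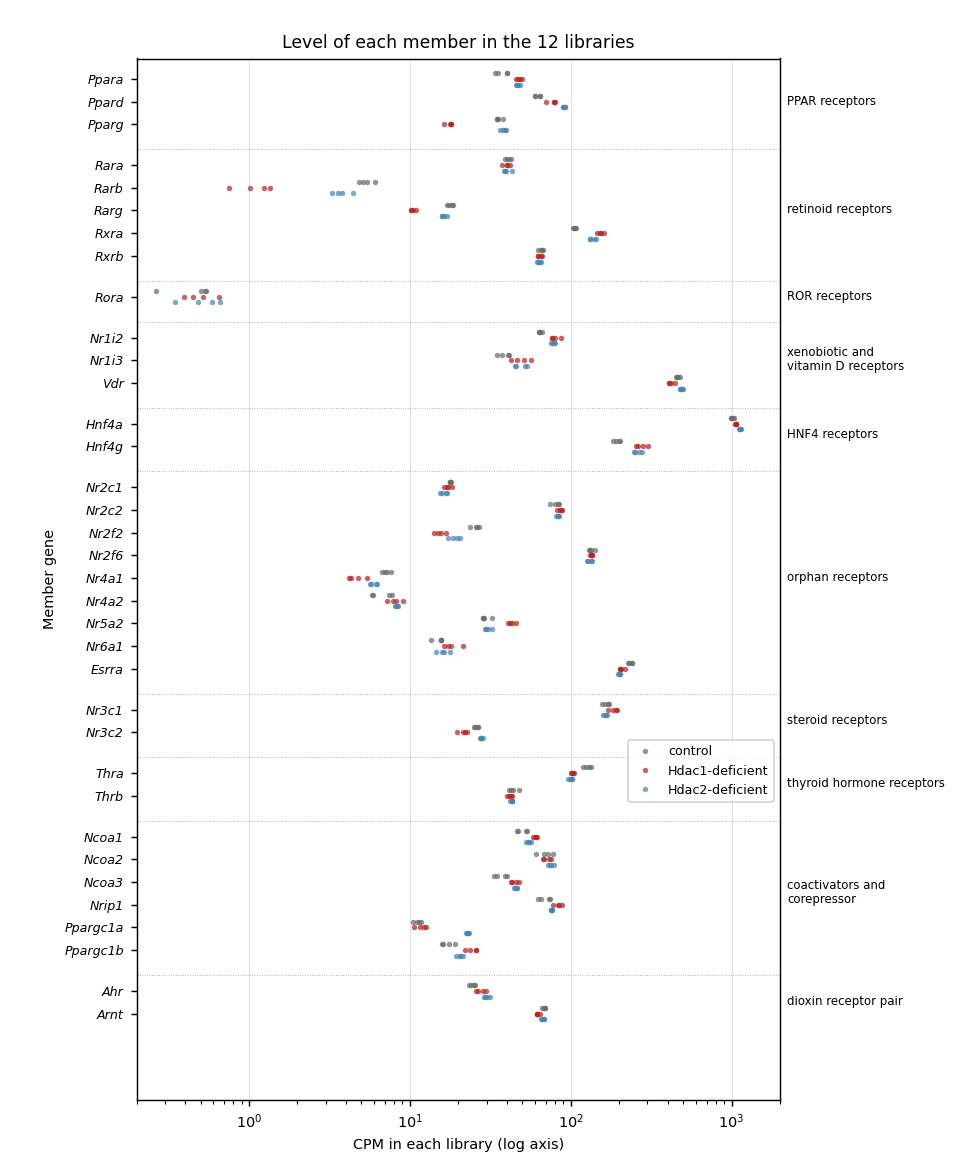
CPM of each member in each of the 12 libraries on a log axis, with 1 point per library and the groups in 3 rows for each gene. Members ran from Rora at 0.265 to 0.664 CPM to Hnf4a at 992 to 1150.4 CPM, and within a group the 4 libraries lay close together for all but the lowest genes.

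The other genes of these pathways were taken from lists of receptors, cofactors and textbook target genes. Among 22 other nuclear receptors, 15 were listed and 10 tested, and 5 were higher and 4 lower with Hdac1, 3 higher and 5 lower with Hdac2. That is 90% and 80% of those tested, beside 64.6% and 62.3% of all genes, a difference that was not tested. The median log2 fold changes were 0.07 and -0.15, beside 0.00 over all genes. Esrrb, a pluripotency receptor, had 17 to 34 counts in control libraries and at most 1 count in any mutant library. It was at least 7.18-fold lower with Hdac1 and at least 5.56-fold lower with Hdac2, taken against 3 counts per library. Nr0b2 (SHP), a repressor induced by bile acids, went from 2.20 ± 0.338 CPM to 4.32 ± 0.733 CPM with Hdac1 (0.98, SE 0.14, adjusted p = 5.17e-06) and 0.535 ± 0.137 CPM with Hdac2 (-2.04, SE 0.22, adjusted p = 4.8e-08). Nr2e3, the photoreceptor nuclear receptor, was lower in both (-0.99 and -1.86, adjusted p = 4.15e-09 and 6.35e-13).

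No gene of the cofactor lists changed by more than 2-fold against control by edgeR or by DESeq2. By edgeR 10.6% of all genes tested did with Hdac1 and 8.3% with Hdac2. Many genes of the lists passed on the adjusted p alone. At that threshold 64.6% of all genes tested passed with Hdac1 and 62.3% with Hdac2. The shares were 57.9% and 73.7% of the coactivators, 60% and 53.3% of the corepressors and 77.8% in each mutant of the dioxin receptor partners. These differences were not tested, and counts at an unadjusted p have no share of all genes beside them. Of 19 other coactivators, among them acetyltransferases, 5 were higher and 6 lower with Hdac1, 8 higher and 6 lower with Hdac2, and 12 and 14 had an unadjusted p under 0.05. Of 15 corepressors 3 were higher and 6 lower with Hdac1 and 2 higher and 6 lower with Hdac2, with 9 and 10 at an unadjusted p under 0.05. Of 9 dioxin receptor partners 3 were higher and 4 lower with Hdac1 and 2 higher and 5 lower with Hdac2, with 7 in each at an unadjusted p under 0.05. Their medians lay between -0.23 and 0.04 on the log2 scale. The member coregulators, at medians of 0.29 and 0.21, lay above these, a description that was not tested. Each of them had a lower log2 fold change in both mutants without control library 1. There Ncoa1 was at 0.25 with Hdac1 and 0.11 with Hdac2, Ncoa3 at 0.24 and 0.27 and Ppargc1b at 0.48 and 0.22.

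**Figure D4:**
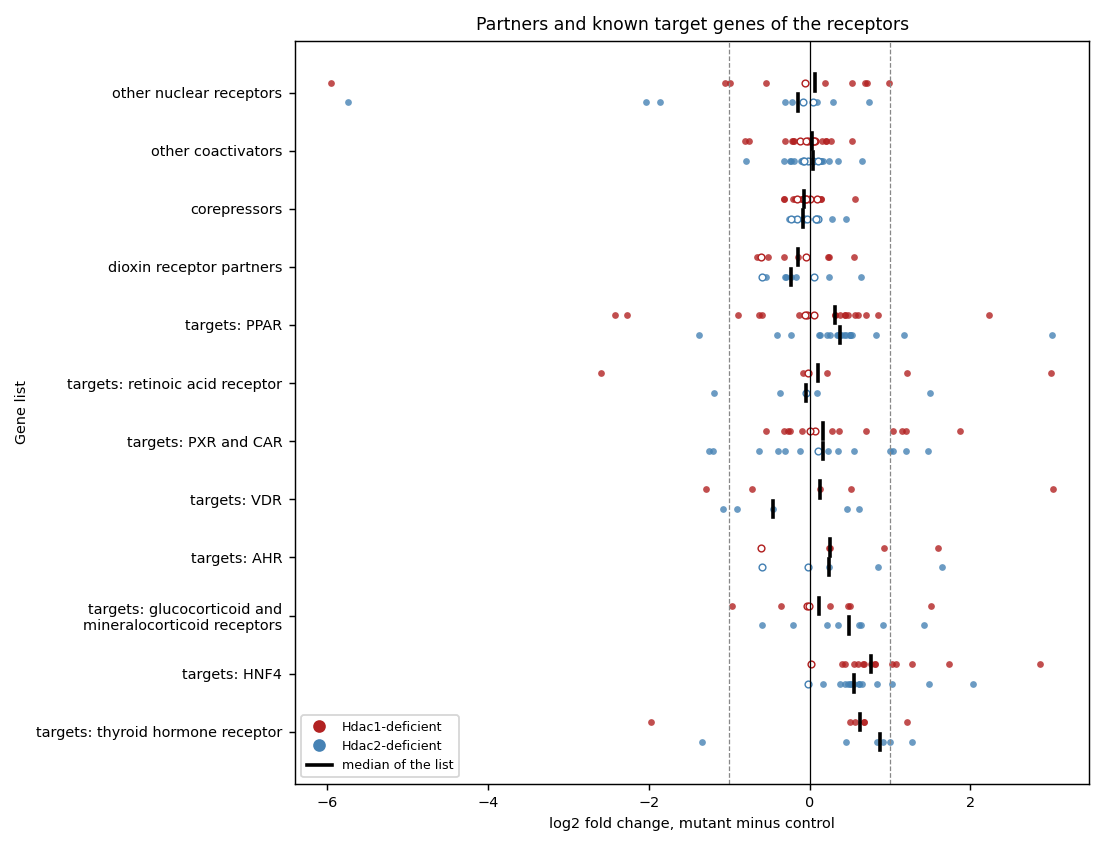
Log2 fold change against control of every tested gene in the lists of partners and target genes, with filled points for an adjusted p of at most 0.05, open points otherwise, black bars for the list median and dashed lines at a 2-fold change. The HNF4 targets lie almost wholly to the right, with medians of 0.76 and 0.56, while the other target lists hold genes on both sides; the Esrrb points near -6 are fitted values against nearly empty libraries and give no size.

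Target genes of the receptors moved in both directions within most lists. The lists do not mark whether a receptor raises or lowers a target, so the counts do not measure receptor activity. The counts of targets given from here on stand beside the shares of all genes past the adjusted p. These were 64.6% with Hdac1 (32.7% higher and 31.9% lower) and 62.3% with Hdac2 (31.4% higher and 30.9% lower). Counts at an unadjusted p again have no such share beside them. No target list was tested against these shares. Of 20 PPAR targets, 11 were higher and 6 lower with Hdac1 and 17 higher and 3 lower with Hdac2, with medians of 0.32 and 0.38. Vnn1, a pantetheinase, rose in both (2.24 and 3.02, adjusted p = 2.13e-12 and 7.81e-17). The fatty acid hydroxylase Cyp4a10 was lower with Hdac1 and higher with Hdac2 (-2.42 and 0.50, adjusted p = 3.97e-09 and 0.00331). Of the 6 retinoic acid targets tested with Hdac1, 3 were higher and 2 lower, and of the 5 tested with Hdac2, 2 were higher and 2 lower. Cyp26b1, which degrades retinoic acid, fell from 57.8 ± 6.28 CPM to 9.40 ± 2.04 and 25.1 ± 2.43 CPM (-2.60 and -1.19, adjusted p = 3.52e-07 and 2.34e-07). Lrat, which esterifies retinol, rose in both (1.21 and 1.50, adjusted p = 3.8e-09 and 1.26e-10).

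Of 14 PXR and CAR targets, 7 were higher and 5 lower with Hdac1 and 7 higher and 6 lower with Hdac2. The drug-metabolizing Cyp3a11 rose in both (1.87 and 1.04, adjusted p = 9.38e-08 and 1.33e-05). Its relative Cyp3a13 fell slightly with Hdac1 and rose with Hdac2 (-0.24 and 1.47, adjusted p = 2.02e-06 and 2.42e-20), and the efflux pump Abcc2 fell in both (-0.54 and -1.25, adjusted p = 0.000144 and 2.99e-11). Reads of the Cyp3a and Cyp4a families can be split among near-identical copies by the counting. Of 5 VDR targets tested, 3 were higher and 2 lower with Hdac1 and 2 higher and 3 lower with Hdac2. The phosphate transporter Slc34a2 rose from 1.92 ± 0.383 to 15.5 ± 1.32 CPM with Hdac1 (3.03, SE 0.11, adjusted p = 7.09e-15) and was at 1.41 ± 0.298 CPM with Hdac2 (-0.45, adjusted p = 0.0472). Cyp27b1, which makes active vitamin D, fell in both at 5 to 26 counts per library (-1.29 and -1.07, adjusted p = 0.00134 and 0.00736).

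Of 5 AHR targets tested, 4 were higher and none lower with Hdac1 and 3 were higher and none lower with Hdac2, beside 4 and 3 at an unadjusted p under 0.05. Cyp1a1, the classical AHR target, rose in both (1.59 and 1.65, adjusted p = 3.72e-07 and 4.23e-07) at levels of 0.603 to 1.90 CPM. Of 8 glucocorticoid and mineralocorticoid targets, 4 were higher and 2 lower with Hdac1 and 6 higher and 2 lower with Hdac2, and Sgk1, a kinase that activates sodium channels, rose in both (1.51 and 1.42, adjusted p = 2.43e-09 and 2.43e-10). Of 15 HNF4 targets, 14 were higher and none lower in each mutant, and 14 in each had an unadjusted p under 0.05. Lactase (Lct; 2.86 and 2.03, adjusted p = 7.45e-09 and 7.3e-06), Apoa1 (1.74 and 1.48, adjusted p = 2.42e-17 and 3.03e-12) and Apoa4 (1.28 and 0.65, adjusted p = 5.9e-13 and 3.28e-05) had the largest changes with Hdac1, while with Hdac2 the lipoprotein assembly genes Apob (1.03, adjusted p = 0.000132) and Mttp (0.83, adjusted p = 1.58e-15), named after their values were seen, rose more than Apoa4. Of the HNF4 targets, Lct, Apoa1, Apoa4, Apob, Sis, Slc5a1, Fabp1 and Fabp2 are also enterocyte markers, whose summed level moved with the groups as given above. Vil1 and Cdx2 are also among the epithelial markers. The counts of HNF4 targets are therefore not separate from those marker levels. Of 6 thyroid hormone targets, 5 were higher and 1 lower in each mutant: Me1, which makes NADPH, and the deiodinase Dio1 rose (0.67 and 1.27, and 1.20 and 1.00), while Shh, a morphogen, was lower (-1.98 and -1.34) at 3 to 23 counts per library.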

How the data were processed

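The authors aligned paired reads of 100 nucleotides from poly(A)-selected, directional libraries to GRCm38 with STAR (2.4.0f1 in the submitters' processing notes), and deposited raw, whole-number read counts per gene. Each table lists only genes whose counts over its 8 libraries sum to 10 or more. The counting program and its strand setting are not given in the sources used here. The tables also hold normalized values, the authors' fold changes, average CPM and DESeq and edgeR p-values, none of which was used. Samples were grouped by their titles.

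Counts were tested with edgeR 4.0.16 in R 4.3.3 (quasi-likelihood F test, TMM, filterByExpr), each mutant against control in 8 libraries and the mutants against each other in all 12, with Benjamini-Hochberg adjustment over all tested genes. Members are called past 2-fold where, besides an adjusted p up to 0.05, the log2 fold change exceeds 1 in size. SE is the log2 fold change divided by the square root of F. Alternatives were DESeq2 1.42.0, scaling by relative log expression or by library size alone, testing without the filter, dropping the fold limit, 1 joint fit, a replicate block and leaving out each library. On simulated counts the test called 199 to 200 of 200 genes changed by 1.5 on the log2 scale, with at most 1 wrong call. The simulation gave all genes the same relative spread beyond counting error and changed only well-counted genes. It does not show how well smaller changes or changes at low counts are found. Members, lists and rules were chosen with earlier results of these data known. Values for every library are given for members called past 2-fold and the member of each role with the highest mean CPM over all libraries. From each other list, up to 3 called genes with the largest changes are named. Some genes that this rule picks are not reported here. Exons come from GENCODE M21 and promoters from RefSeq.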

Additional observations from a re-analysis of the deposited data

Results flagged for a closer look

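In 7 of 105 sets of 4 libraries (35 members in 3 groups), the highest or lowest library stood apart by the ratio of its gap to the whole range, where chance gives about 1 in 20. In Hdac1-deficient enteroids these were Ppard (ratio 0.913), with library 4 at 70.7 CPM and the others at 78.7 to 79.5 CPM, Pparg (0.874), with library 1 at 16.2 CPM and the others at 17.9 to 18.1 CPM, and Arnt (0.922), with library 1 at 64.9 CPM and the others at 61.4 to 61.7 CPM. In control they were Rora (0.894), with library 3 at 0.265 CPM and the others at 0.503 to 0.543 CPM, Nr5a2 (0.898), with library 3 at 32.3 CPM and the others at 28.4 to 28.7 CPM, and Nr6a1 (0.962), with library 1 at 13.6 CPM and the others at 15.6 to 15.7 CPM. In Hdac2-deficient enteroids Thrb stood out (0.897), with library 1 at 41.9 CPM and the others at 43.3 to 43.4 CPM.

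The direct test of Hdac1-deficient minus Hdac2-deficient enteroids passed for 17 of 35 members, or 48.6% beside 45.9% of all 14510 genes tested. Of these, 11 were lower in Hdac1-deficient enteroids on the log2 scale: Rarb (-1.78), Pparg (-1.12), Ppargc1a (-0.96), Rarg (-0.64), Nr3c2 (-0.36), Nr4a1 (-0.34), Nr2f2 (-0.30), Ppard (-0.23), Vdr (-0.21), Arnt (-0.10) and Hnf4a (-0.0855). The 6 that were higher were Nr5a2 (0.49), Ppargc1b (0.25), Nr3c1 (0.18), Rxra (0.17), Ncoa1 (0.14) and Nrip1 (0.13). Adjusted p ran from 5.32e-16 for Pparg to 0.0228 for Nrip1.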

How the results depend on the processing

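With no limit on the fold change, 27, 22 and 17 members passed with Hdac1, with Hdac2 and between the mutants, and 9196, 8729 and 6665 of all genes. With no filter on low counts, 2335 and 1792 genes were called with Hdac1 and Hdac2, where 1507 and 1162 were called with it. With each library left out in turn, 1 to 2 members were called past 2-fold with Hdac1, 1 with Hdac2 and 2 between the mutants. The members called past 2-fold kept their calls in the other alternatives, except for Pparg with Hdac1 as given above. Signs turned only for members not past the threshold. With a library left out, log2 fold changes with Hdac1 ran from -0.0307 to 0.0184 for Rara, -0.0282 to 0.0055 for Rxrb, -0.0505 to 0.2607 for Rora and -0.0175 to 0.0981 for Ncoa2. With Hdac2 they ran from -0.0612 to 0.0030 for Rara, -0.0349 to 0.0126 for Nr2f6, -0.0442 to 0.0031 for Nr3c1 and -0.0511 to 0.0195 for Thrb. Between the mutants they ran from -0.0182 to 0.0422 for Rara, -0.2164 to 0.0771 for Rora, -0.0653 to 0.0762 for Nr1i3, -0.0820 to 0.0262 for Nr4a2 and -0.0553 to 0.0048 for Ncoa3. Between the mutants, library size alone gave 0.0002 for Nr4a2 and 0.0017 for Ncoa3, and the replicate block gave -0.0024 for Nr1i3. The cause was not tested.

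No source says that same-numbered libraries belong together. Correlations of their deviations ran from -0.27 to 0.24, with 5 of 12 pairs over 0.1, so the numbers were not taken to pair the samples. In 13 of 24 comparisons with another group a library correlated best with its own number, where chance gives 6, which is a hint from the data and not from the design. The replicate block moved 3 further member results across the threshold: Nr2c2 with Hdac1 (0.11, adjusted p = 0.054), Ncoa2 with Hdac2 (0.13, adjusted p = 0.0157) and Nr6a1 between the mutants (0.18, adjusted p = 0.0366). Depth limits chiefly Rora, whose standard errors of 0.29 to 0.31 leave changes well below 2-fold undetectable.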
